A study of Mus musculus with 6 samples.

Results

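The genes described here are named for proteins of the mitochondrial ribosome, and whether each product is part of it was not examined. They were taken as the protein-coding genes named Mrpl (large subunit) or Mrps (small subunit) followed by a number and at most 1 letter. This gave 78 genes, 49 of the large and 29 of the small subunit. Reads that cross an exon-intron junction were listed in all 4 total RNA libraries for 178 of their introns, in 71 genes, out of 68322 introns in 10145 genes overall. The long-read tables held 342 of their transcripts among 116873.

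The mitochondrial ribosome translates the few proteins that the mitochondrial genome encodes, all of them parts of the respiratory chain and the ATP synthase. Its own proteins are coded in the nucleus, made in the cytoplasm and imported, so each of their messages must first be spliced in the nucleus. Names follow the subunit in which a protein was first placed, and a few proteins with an Mrps name, such as Mrps18a and Mrps30, sit in the large subunit. Genes are grouped by name throughout, so these are counted with the small subunit. Son codes for a nuclear protein of splicing speckles that is known for its part in the splicing of introns with weak splice sites.

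All samples were E14 mouse embryonic stem cells of 129/Ola background, grown with serum and leukemia inhibitory factor. Cells were transfected with Lipofectamine2000 24 hours after seeding, carrying either Son siRNA or control siRNA, and RNA was taken 24 hours later. Total RNA libraries, depleted of ribosomal RNA, came from 2 samples per group, and Nanopore cDNA libraries from 1 per group. The labels name the same knockdown sample as starting material of both Nanopore libraries, so which cells the long-read control came from is unclear. Nothing in the labels says that the replicates were separate cultures, so p-values measure the spread between these samples, which may be technical.

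Son itself gave 4376 and 3251 spliced reads in the controls, against 1380 and 1061 in the knockdown libraries. This was a log2 fold change of -1.61 ± 0.09 (SE, n = 2 per group; adjusted p = 3.72e-10, edgeR quasi-likelihood test, Benjamini-Hochberg over all genes). The libraries held between 10556187 and 16012286 split reads at 5′ junctions. Of 12 embryonic stem cell markers, 11 were listed in all 4 libraries, with summed levels between 5614 and 5947 CPM. For total RNA, CPM are counts scaled to the library total after TMM normalization, and for long reads to the plain library total. Summed levels of endoderm, mesoderm and fibroblast markers did not pass 4.72 CPM in any library, and neural markers summed to between 72.0 and 86.1 CPM. Only 2 of 6 endoderm, 1 of 5 mesoderm and 1 of 6 fibroblast markers were listed in all 4 libraries, and unlisted markers added nothing. Most of the neural sum was Tubb3, at 67.4 to 81.7 CPM.

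The sequences below show the joined exons at the introns of the genes that the results turn on. Each gives the last 15 bases of the upstream exon and the first 15 of the downstream exon, 5′ to 3′ on the transcript strand, from GENCODE M21 transcripts. Capitals mark the last 3 bases before the intron and the first base after it, the exon letters of the splice sites. Intron positions are those of the deposited tables (GRCm39, first and last intron base), and all of these introns lie between coding exons.
Mrpl38 intron 5, chr11:116025128-116025258, minus strand: tattcatcaactTGGAcggacacctgctgg
Mrpl38 intron 7, chr11:116023383-116023568, minus strand: ccgtccctcaccCTGCtaccagctggccca
Mrpl38 intron 8, chr11:116022957-116023245, minus strand: tccaccagcttcTAGAcatgcgggaacctg
Mrpl53 intron 1, chr6:83086185-83086294, plus strand: cgtggagtccacGAGGaccttcctccagac
Mrpl24 intron 3, chr3:87829534-87829694, plus strand: gaggggttgaacACGCattaccgatacatt
Mrpl24 intron 4, chr3:87829799-87830241, plus strand: ggatcctgtggaCAGGaaacccactgagat
Mrpl24 intron 5, chr3:87830373-87830516, plus strand: ctgaaacatggaCTGAtggccccaaggaca
Mrpl58 intron 2, chr11:115297414-115300305, plus strand: gttacatccctcTGGAtcggttaagcatat
Mrpl58 intron 5, chr11:115301228-115301463, plus strand: gcttcagagactCAGGattgaaaagatgaa
Mrps26 intron 1, chr2:130405911-130406000, plus strand: cgtgcgcgctctCAGGctagagttcacgtt

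The 2 most frequent exon ends, CAG and AAG, closed the upstream exon at 47.8% of the 178 introns, against 43.9% of all introns with a matched sequence. CAG alone stood at 29.2% of them and at 24.0% of all introns. Among the 10 introns printed, 3 follow CAG and none follows AAG, which depends on the choice of introns to print. Intron 5 of Mrpl30 and intron 2 of Mrps18b, described below and not printed, follow AAG. Intron 6 of Mrpl2 follows CAG and intron 3 of Mrps18b follows ATT. The introns had a median length of 1046.5 nt against 1134 nt for all introns. The exon flanks had a median GC content of 50.5% in both sets, and the median intron had 307 junction reads per library against 181.

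Splicing efficiency is the share of split reads among all reads at both junctions of an intron. Introns of these genes were well spliced in every library. Controls had means of 0.934 and 0.924, and knockdown libraries had means of 0.925 and 0.915. The first knockdown library lay between the controls, so the groups overlapped. The difference of -0.00845 was close to the spread between libraries (SD of 0.00734 in controls and of 0.00727 in knockdown, n = 2 each). In both groups the first library had the higher mean, and each knockdown library lay below the control of the same number. The SD includes this difference between first and second libraries. Over all 68322 introns the same mean was 0.903 and 0.893 in the controls, against 0.893 and 0.875 in the knockdown. Large subunit introns averaged 0.946 and 0.939 in the controls, against 0.940 and 0.927 in the knockdown. Small subunit introns were lower throughout, at 0.914 and 0.899 in the controls, against 0.902 and 0.895 in the knockdown.

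The test compared the odds of unsplit against split reads between groups, so a log2 odds ratio above 0 means less efficient splicing in the knockdown. Of 174 introns tested, 1 fell in efficiency, in Mrpl38, and none rose. That is 0.575% of them, against a background of 1.71% of all 63309 tested introns that fell. At an unadjusted p under 0.05, 10 of the 174 were lower and 1 was higher, or 5.75% and 0.575%, against 8.11% and 1.61% of all introns. DESeq2 called none of the 174, against 0.45% of all introns, and 7 of them, or 4.02%, had an unadjusted p under 0.05, against 5.82%. With limma no intron was called, of these or of all, and 9 of the 174, or 5.17%, had an unadjusted p under 0.05, against 9% of all. Both knockdown libraries lay below both controls for 35 introns, or 20.1% against 24.3% of all. They lay above both for 19, or 10.9% against 13.1%. The median log2 odds ratio was 0.10 for these introns and 0.12 for all. Scaling split and unsplit reads separately gave medians of -0.06 and -0.04. Such scaling takes out a change in the ratio common to all introns. Both medians thus depend on the scaling, and this setting cannot test their direction.

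Mrpl38 codes for a large subunit protein with no bacterial counterpart. Its intron 5, of 131 nt, had efficiencies of 0.975 and 0.992 in the controls, against 0.960 and 0.907 in the knockdown libraries. Summed over both junctions, where a spliced read counts at each, there were 656 and 497 split with 17 and 4 unsplit reads in the controls. The knockdown libraries had 403 and 272 split with 17 and 28 unsplit reads, so both lay below both controls and the second was the lowest. The log2 odds ratio was 1.96 ± 0.54 (SE, adjusted p = 0.031, edgeR quasi-likelihood test). With the 5′ junction alone or the 3′ junction alone this intron was not called. The call was lost without either control library (adjusted p up to 0.555) and without the second knockdown library. Neighbouring introns of the same gene had smaller differences: intron 7, of 186 nt, stood at 0.964 and 0.949 in controls, against 0.950 and 0.949 in knockdown. Intron 8, of 289 nt, stood at 0.968 and 0.939 in controls, against 0.886 and 0.971 in knockdown, and its groups overlapped.

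Mrpl53 codes for another large subunit protein found only in mitochondrial ribosomes. Its only listed intron, intron 1 of 110 nt, stood at 0.965 and 0.931 in the controls, against 0.884 and 0.735 in the knockdown libraries. Both knockdown libraries lay below both controls, and this was the largest fall among the 162 introns whose junctions had 50 or more reads in each library. Its adjusted p was 0.062 over all introns (edgeR), just outside the threshold of 0.05.

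Mrpl24 codes for a large subunit protein of the family that bacteria share. All 3 of its listed introns had an unadjusted p under 0.05, with adjusted p from 0.122 to 0.383 (edgeR). Intron 5, of 144 nt, was the least efficient of them, at 0.909 and 0.808 in controls, against 0.794 and 0.722 in knockdown. Intron 4 stood at 0.983 and 0.982 in controls, against 0.962 and 0.956 in knockdown. Intron 3 was spliced nearly fully, at 0.994 and 0.996 in controls, against 0.983 and 0.990 in knockdown. The groups did not overlap at any of the 3. Exons of Rrnad1, a gene on the opposite strand, lie within introns 4 and 5, and whether the authors counted by strand is not given in the sources used here. Unsplit reads there may belong to either gene.

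Mrpl58, also known as ICT1, codes for a large subunit protein that can release peptides from stalled ribosomes. Its intron 5, of 236 nt, stood at 0.978 in both controls and at 0.938 and 0.943 in the knockdown libraries. Its intron 2, of 2892 nt, stood at 0.925 and 0.935 in controls, against 0.877 and 0.800 in knockdown, and an exon of Ict1os lies on its opposite strand. The adjusted p was 0.125 and 0.235 (edgeR), and the groups did not overlap at either intron.

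The remaining introns at an unadjusted p under 0.05 lay in Mrps18b, Mrpl2 and Mrpl30. In Mrps18b, a small subunit gene, intron 2 stood at 0.986 and 0.979 in controls, against 0.965 and 0.973 in knockdown. Its intron 3 stood at 0.994 in both controls and 0.983 and 0.989 in knockdown, while intron 1 of the same gene stood at 0.896 and 0.910 against 0.912 and 0.905. Intron 6 of Mrpl2 stood at 0.938 and 0.987 in controls, against 0.946 and 0.875 in knockdown, so its groups overlapped. Intron 5 of Mrpl30 was the 1 with a higher value, at 0.958 and 0.967 in controls, against 0.977 and 0.987 in knockdown. Of these 11 introns, 8 belonged to the shortest length class, of 37 to 283 nt.

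**Figure D1:**
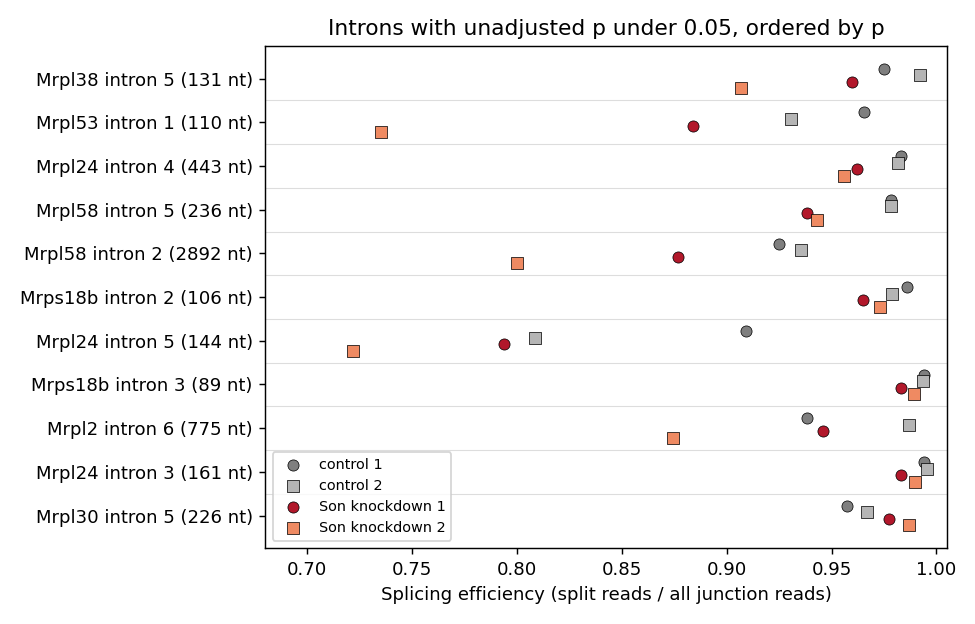
Splicing efficiency (x axis, share of split reads, axis from 0.68) of the 11 introns with an unadjusted p under 0.05 in the edgeR test, ordered by p, with each of the 4 total RNA libraries as a point. Knockdown points lie left of control points except for Mrpl30 intron 5, where they lie right, and Mrpl2 intron 6, where the groups overlap.

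Short introns were compared with long ones, since introns called lower over all genes had a median length of 131 nt. In the shortest of 5 length classes, of 37 to 283 nt, 6.52% of 12695 introns fell in efficiency. Of the 36 that belong to mitochondrial ribosomal protein genes, 1 fell, which is 2.78%. The mean change in efficiency in that class was -0.0138 for these introns and -0.0421 for all. Several short introns had nearly the same mean in both groups. The 83-nt intron 4 of Mrpl12, for example, had a mean of 0.905 in controls, against 0.901 in knockdown, and the 86-nt intron 3 of Mrpl11 had 0.975 and 0.973. In the longest class, from 3087 nt, none of 28 fell, against 0.111% of all. Whether these genes differ from other genes within the short class was not tested.

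**Figure D2:**
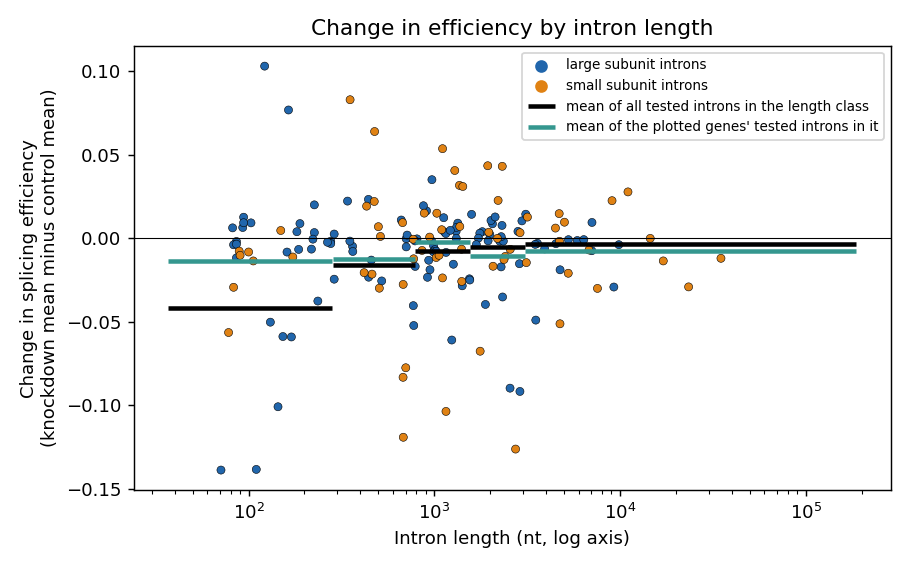
Change in splicing efficiency (knockdown mean minus control mean, y axis) against intron length (nt, log axis) for the 178 introns, with the mean of tested introns in each of 5 length classes as horizontal lines. In the shortest class the mean of these genes' introns, -0.0138, lies above the mean of all introns, -0.0421.

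The introns spliced least in control cells moved in both directions. Among the same 162 well-covered introns, the lowest was intron 1 of a non-coding Mrps10 transcript (681 nt), at 0.470 and 0.565 in controls, against 0.438 and 0.358 in knockdown, which was also the second largest fall. Over the 2 listed introns of Mrps10, 5′ junctions held 17 and 15 of 88 and 65 split reads in controls. In knockdown they held 30 and 12 of 95 and 53. Most split reads thus came from 3′ junctions, so these values may not measure the splicing of this intron alone. Next came intron 9 of Mrpl39, at 0.684 and 0.542 in controls, against 0.607 and 0.540 in knockdown. Intron 2 of Mrps9, 17106 nt long, stood at 0.776 and 0.663 against 0.777 and 0.635. Both of these overlapped between groups. The other two of the 5 lowest had a higher mean in the knockdown. The 122-nt intron in the 3′ untranslated region of an Mrpl42 transcript stood at 0.737 and 0.773 in controls, against 0.899 and 0.817 in knockdown, and intron 7 of Mrps22 at 0.818 and 0.756 against 0.883 and 0.798. None of the 5 passed the test. Intron 3 of Mrpl27, among the 5 largest falls in the mean, stood at 0.921 and 0.845 in controls, against 0.833 and 0.753 in knockdown, with an adjusted p of 0.716 (edgeR). The remaining largest rises were in intron 10 of Mrps9, intron 2 of Mrps14 and the 971-nt intron of Mrpl13, at 0.044, 0.043 and 0.035, and none passed the test.

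Summed over the listed introns of a gene, efficiency fell in 4 of 71 genes, which is 5.63% against a background of 6.98% of 9370 genes, and rose in none. An unadjusted p under 0.05 was reached by 5 of the 71, or 7.04%, against 13.8% of all genes. DESeq2 called 2, or 2.82%, against 5.37%. The 4 were Mrpl58, Mrpl24, Mrpl53 and Mrpl38, all of the large subunit. Mrpl58 went from 0.961 and 0.964 in controls to 0.913 and 0.890 in knockdown (log2 odds ratio 1.46 ± 0.36, SE; adjusted p = 0.0014, edgeR). Mrpl24 went from 0.973 and 0.956 to 0.934 and 0.926 (1.06 ± 0.27; adjusted p = 0.0026, edgeR). Mrpl53, with the 1 intron given above, had a ratio of 2.08 ± 0.62 (adjusted p = 0.014, edgeR), and Mrpl38 of 1.09 ± 0.36 (adjusted p = 0.034, edgeR). None of the 27 genes with an Mrps name passed. All 4 calls were lost without the first control library. Without the second control library Mrpl58 and Mrpl38 were lost, and without the second knockdown library Mrpl53 and Mrpl38. With reads of the 5′ junction alone no gene was called (5 had an unadjusted p under 0.05), and with the 3′ junction alone Mrpl24 and Mrpl58 were.

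Spliced reads were counted as split reads at 5′ junctions per gene and give a measure of spliced RNA in the sample. In these bulk samples, fewer cells of a type and less RNA per cell cannot be told apart. Of 67 genes tested, 5 had fewer spliced reads in the knockdown, or 7.46% against a background of 6.76% of 9474 genes. None had more, against 1.96%. DESeq2 called 4 with fewer and none with more, against 5.58% and 1.38% of all genes. At an unadjusted p under 0.05, 13 had fewer and 2 had more, or 19.4% and 2.99%, against 12% and 7.72% of all genes. Both knockdown libraries lay below both controls for 23 genes, 34.3% against 24.6% of all, and above both for 6, 8.96% against 24%. The median log2 fold change was -0.05, against 0.01 for all genes. It was -0.03 over 43 large and -0.06 over 24 small subunit genes.

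The 4 genes whose efficiency fell were also 4 of the 5 with fewer spliced reads. Both measures use the same split reads, so they are not independent. Mrpl24 had 114 and 109.8 CPM in the controls, against 77.7 and 73.3 in the knockdown libraries. Its log2 fold change was -0.57 ± 0.09 (SE; adjusted p = 3.38e-04, edgeR), and it stayed under the threshold in all 10 alternatives tried. Mrpl38 had 43.8 and 44.4 CPM in the controls, against 31.1 and 28.2 in the knockdown (log2 fold change -0.57 ± 0.13; adjusted p = 0.0045, edgeR). Mrpl58 had 32.2 and 36.5 CPM against 23.3 and 21.8 (-0.60 ± 0.14; adjusted p = 0.0072, edgeR). Mrpl53, the largest fall, had 9.89 and 7.15 CPM against 3.86 and 2.41 (-1.42 ± 0.28; adjusted p = 0.0015, edgeR). In reads this was 153 and 74 against 57 and 25, so it rests on few reads.

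The fifth gene was Mrps26, which codes for a small subunit protein found in mitochondria only. It had 15.8 and 15.6 CPM in the controls, against 9.01 and 10.5 in the knockdown libraries (log2 fold change -0.69 ± 0.19, SE; adjusted p = 0.021, edgeR). Its efficiency, at 0.953 and 0.967 in controls, against 0.940 and 0.931 in knockdown, did not pass the test (adjusted p = 0.705, edgeR). For all 5 genes both knockdown libraries lay below both controls. Mrpl28 and Mrps18b fell just outside the threshold, with 57.1 and 56.6 CPM against 42.6 and 46.2 and with 235 and 232 CPM against 197 in both knockdown libraries (adjusted p = 0.051 and 0.052, edgeR).

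Leaving out single libraries moved these calls. Without the first control library Mrpl53, Mrpl38 and Mrps26 were lost, and 2 genes remained. Without the second control library Mrpl38, Mrpl58 and Mrps26 were lost, and again 2 remained. Without the first knockdown library 15 genes had fewer spliced reads and 2 had more, and 23.1% of all genes were called. DESeq2 lost Mrps26. A gene on the opposite strand is annotated for 4 of the 5 genes, all but Mrpl38, and for 36 of all 78 mitochondrial ribosomal protein genes. Among the 32 tested genes with no such gene, 1 had fewer spliced reads, or 3.12%. The same shares over all genes were not computed, and whether an opposite-strand gene bears on the calls was not tested.

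**Figure D3:**
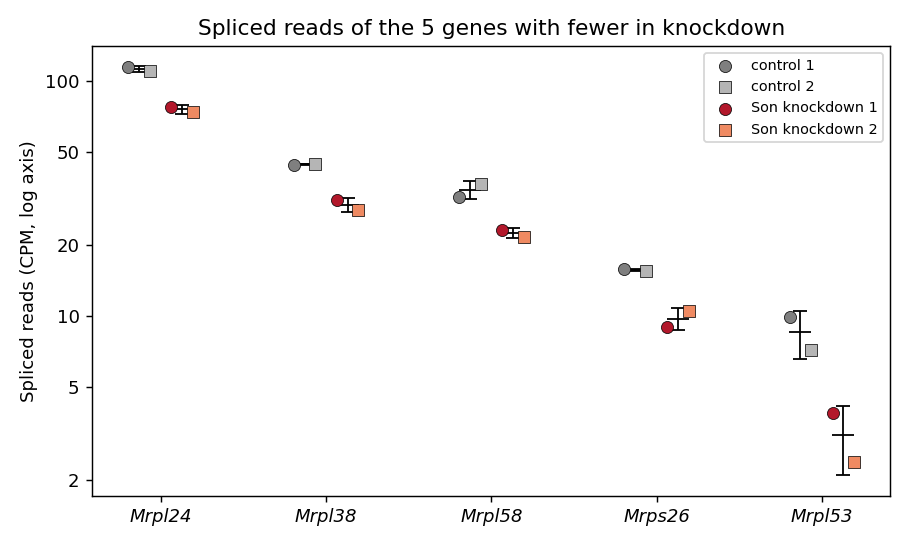
Spliced reads (CPM, log axis) of the 5 genes with fewer in the knockdown, with each of the 4 total RNA libraries as a point and the mean ± SD of the 2 libraries of a group in black. For each gene both knockdown points lie below both control points, from Mrpl24 at about 112 against 75.5 CPM to Mrpl53 at 8.52 against 3.13 CPM.

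Summed over the 67 genes, spliced reads made up 2950 and 2907 CPM in the controls, against 2745 and 2726 in the knockdown libraries. The mean went from 2929 ± 29.7 to 2736 ± 13.1 CPM (SD, n = 2), a difference of -6.59%, and the groups did not overlap. The difference was -5.59% for the sum of the 43 large subunit genes and -9.07% for that of the 24 small subunit genes. Such sums weigh genes with many reads most. The small subunit mean went from 840 to 764 CPM, and within it Mrps18b alone went from 233 to 197 CPM. An exact permutation test of 2 libraries against 2 cannot go below 0.333. The highest level per listed intron in controls was that of Mrpl34, a large subunit protein with a bacterial counterpart. It had 74.2 and 77.8 CPM per intron in the controls, against 86.6 and 93.4 in the knockdown, above both controls, with an adjusted p of 0.156 (edgeR). Mrpl15 followed, with 68.7 and 67.5 in the controls, against 68.9 and 64.2 in the knockdown. Mrpl11 had 47.4 and 46.8 against 44.7 and 54.5. Both overlapped between groups. At the low end, Mrpl41, Mrps21, Mrps12 and Mrps6 had 0 to 2 split reads at the 5′ junction of their only listed intron in any library. Mrpl41 still had 428 and 315 split reads over both junctions in the controls, so reads came from the 3′ junction and the 5′ value does not measure its level.

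**Figure D4:**
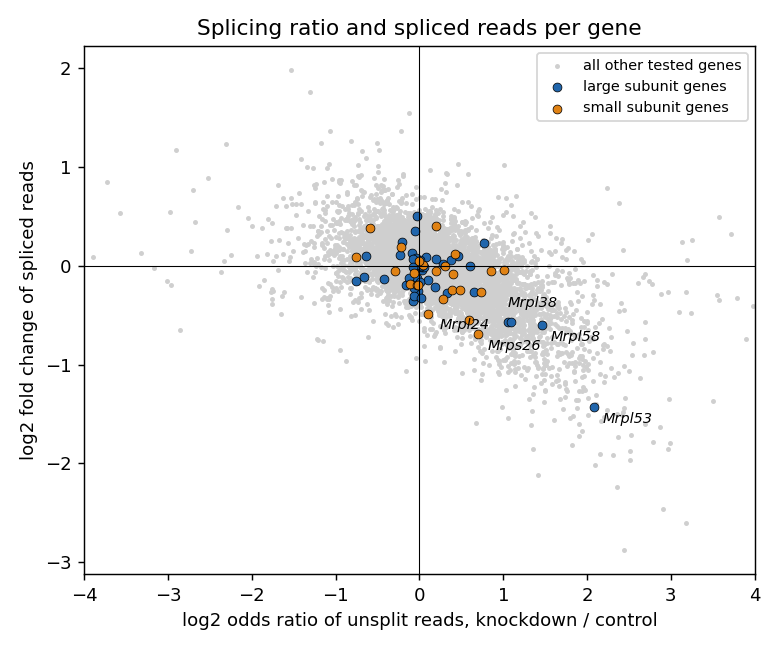
Log2 odds ratio of unsplit reads (x axis) against log2 fold change of spliced reads (y axis), knockdown over control, for each tested gene (grey) and for the mitochondrial ribosomal protein genes (colour). The 4 genes with lower efficiency and fewer spliced reads lie at the lower right, most of the others lie near 0, and 5 other genes lie outside the x axis of -4 to 4.

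The long reads, with 3080426 in the control and 1874851 in the knockdown library, allow no test, since there was 1 library of each kind. All 78 genes had at least 20 long reads over both. Only Mrps10 passed 2-fold, with 160 and 46 reads, which is 1.28% of the genes against a background of 4.16% of all genes that were lower. The log2 ratio of its CPM was -1.07 (95% Clopper-Pearson interval -1.59 to -0.60, counting error only). No gene was 2-fold higher, against 2.2% of all genes. The median log2 ratio was -0.01 both for these genes and for all.

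Of the 5 genes with fewer spliced reads in total RNA, 3 had an interval below 0 in the long reads. Mrpl53 had 204 and 74 reads (log2 ratio -0.74, interval -1.15 to -0.36). Mrpl38 had 158 and 63 (-0.60, interval -1.06 to -0.18) and Mrpl24 had 305 and 150 (-0.31, interval -0.60 to -0.02). Mrpl58, with 148 and 88, did not differ beyond counting error (-0.03, interval -0.43 to 0.36). Mrps26 had the most long reads of all 78 genes, 2177 and 1406, and a ratio of 0.09 (interval -0.01 to 0.18). Of those, 2167 and 1398 were assigned to Mrps26-202, a model of 4278 nt. The difference between its spliced reads in total RNA and its long reads was not tested.

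Some genes without a call in total RNA were lower in the long reads. Mrps24 had 238 and 75 long reads (log2 ratio -0.94, interval -1.34 to -0.57), and its spliced reads in total RNA were 12.3 and 13.0 CPM in controls against 10.4 and 7.41 in knockdown (adjusted p = 0.188, edgeR). Mrpl57 and Mrpl55, which have no intron listed in all 4 libraries, had 241 and 94 and 205 and 76 long reads. In the other direction, Mrps22 had the highest ratio, 0.54 (interval 0.14 to 0.94), from 113 and 100 reads. The interval lay below 0 for 12 of the 78 genes, or 15.4%, against 10.9% of the 9616 genes with enough long reads, and above 0 for 11, or 14.1%, against 8.88%. These intervals cover counting error between 1 library a group only. Across the 67 genes measured in both assays, the long-read log2 ratio and the log2 fold change of spliced reads had a Pearson r of 0.34 and a Spearman rho of 0.28. These are correlations across genes, which are not independent replicates.

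Of 139 transcripts with at least 20 long reads, 6 were at least 2-fold lower and 6 at least 2-fold higher, 4.32% each, against 5.8% and 3.32% of 13807 transcripts. Counts of this kind depend on the pseudocount: with 5 reads instead of 0.5, none was lower and 5 were higher. The same pseudocount was added to libraries of unequal size. It therefore pulls ratios toward equal read counts, a log2 ratio above 0 here, so the counts with 5 reads do not compare the directions. The largest rise was Mrpl20-206, with 17 and 43 reads (log2 ratio 2.03, interval 1.22 to 2.96), and Mrps17-204 followed with 14 and 28 (1.69). Mrpl52-207, a retained-intron transcript, had 8 and 13 (1.38). Mrpl24-203, Mrpl2-203 and Mrpl36-202 had log2 ratios of 1.19, 1.12 and 1.11. Of the lower ones, Mrps24-205 had 220 and 66 reads (-1.01), Mrpl55-201 had 148 and 44 (-1.02) and Mrps10-204 had 72 and 21 (-1.04). Mrpl24-204, with 30 and 7 reads, had a ratio of -1.31, the largest fall. Mrpl39-202, a retained-intron transcript, had 42 and 11 (-1.17), and Mrpl17-201 had 16 and 4 (-1.16), with an interval that spans 0.

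**Figure D5:**
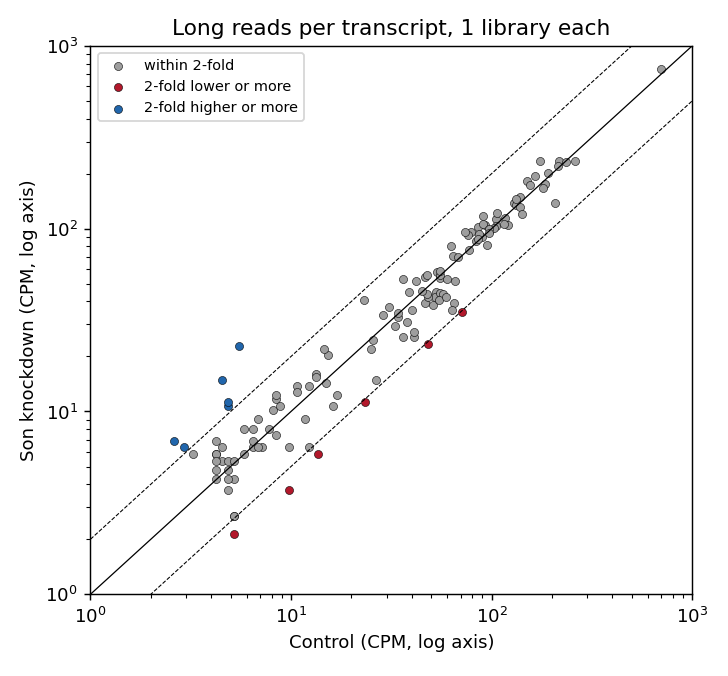
Long-read CPM in the knockdown (y axis) against the control library (x axis), both on log axes, for the 139 transcripts with at least 20 reads over both libraries. The solid line marks equal values and the dashed lines 2-fold differences, which 6 transcripts pass upward and 6 downward, mostly those with few reads.

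Transcripts annotated as retained introns took 4.51% of these genes' long reads in the control (95% Wilson interval 4.27% to 4.76%) and 4.50% in the knockdown (4.19% to 4.82%). Over all annotated transcripts the share was 6.24% and 6.64%. Within single genes it moved in both directions. In Mrpl52 it was 11.7% of 780 reads in the control and 23.1% of 399 in the knockdown, and these intervals did not overlap. In Mrpl39 it was 12.2% of 343 and 5.64% of 195, and in Mrps5 16.9% of 361 and 9.23% of 195. Mrpl13 stood apart with 66.2% of 544 and 63.5% of 342 reads on such transcripts. These 4 genes were chosen after their values were seen.

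Other genes of mitochondrial ribosome assembly and translation were read from a list of 50, of which 42 could be tested. Spliced reads fell in 3, or 7.14% against the 6.76% of all genes, and rose in none. The median log2 fold change was 0.02. Efficiency fell in 2 of the 42, Eral1 and Polrmt, against 6.98% of all genes, and rose in none. Eral1, a GTPase that binds the small ribosomal RNA, had 33.8 and 30.8 CPM in controls, against 16.3 and 17.3 in knockdown (log2 fold change -0.95 ± 0.15, SE; adjusted p = 1.55e-04, edgeR). Its efficiency fell too, from 0.876 and 0.860 to 0.765 and 0.767. Rpusd3, a pseudouridine synthase of mitochondrial RNA, had 18.3 and 16.7 CPM against 9.69 and 9.63 (-0.86 ± 0.18; adjusted p = 0.0031, edgeR). Tufm, the mitochondrial elongation factor that brings charged tRNAs to the ribosome, had 294 and 308 CPM against 238 and 245 (-0.32 ± 0.08; adjusted p = 0.0081, edgeR), with efficiencies of 0.985 and 0.985 in controls, against 0.984 and 0.982 in knockdown. Polrmt, the mitochondrial RNA polymerase, fell in efficiency from 0.953 and 0.944 to 0.886 and 0.888 (log2 odds ratio 1.23 ± 0.26; adjusted p = 9.79e-05, edgeR), while its spliced reads were 101 and 98.9 CPM against 85.1 and 79.2 (adjusted p = 0.072, edgeR).

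The start regions of these genes were searched for a pair of sequence motifs. Of the 78 genes, 75 matched a RefSeq promoter (GRCm38.p6), a window of 300 bases around the start that lies mostly before it. The letters CCGGAAG, the core bound by ETS factors such as GABPA, stood on either strand in 26 of them, 34.7%, against 8.86% of 32851 promoters. The palindromic motif of NRF1, a regulator of genes for mitochondrial proteins, stood in 13, 17.3%, against 4.60%. Mrpl17, Mrpl57, Mrps21 and Mrps26 held both. Of the 5 genes with fewer spliced reads, Mrpl53, Mrpl58 and Mrps26 held the first and Mrps26 alone the second. The background includes promoters of genes of every type, and a match describes letters only.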

How the data were processed

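For 2 control and 2 knockdown total RNA libraries the deposited SPLICE-q tables (per the labels) hold read counts, split or unsplit, for the 5′ and 3′ junction of every intron, and a score, a deposited fraction from 0 to 1 that equals split over all junction reads. For 1 long-read library of each kind they deposited read counts per transcript. The submitters' processing notes name GRCm39, SAMtools and minimap2. Annotation version, counting by strand and SPLICE-q settings are not given in the sources used here. Every listed junction had at least 10 reads.

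Gene names, transcript types and exon sequences came from GENCODE M21 by identifier. Introns listed in all 4 libraries were used. Split against unsplit reads were tested in edgeR 4.0.16 (quasi-likelihood, R 4.3.3) with a term per library, introns needing 10 reads of each kind over the libraries. Library size was the same for both columns of a library. Spliced reads, summed per gene from 5′ junctions, used TMM and edgeR's default filter. Reads across a whole intron count at each junction. All tests ran on the whole tables with Benjamini-Hochberg adjustment and a threshold of 0.05. The scripts were tested on simulated data. Long-read counts were scaled to the library total with a pseudocount of 0.5 reads, over transcripts or genes with at least 20 reads. DESeq2 1.42.0, limma 3.58.1 and other settings were alternatives.

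The members and lists were chosen with earlier results of these data known. The text names every gene or intron that passed a test, transcripts past 2-fold, the 5 introns each with the lowest efficiency in controls and the largest falls and rises, and the genes with the most and fewest spliced reads per listed intron. Introns with an unadjusted p under 0.05 and the genes nearest the threshold were added after their values were seen. The joined exon sequence of 1 listed intron is not reported here.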

Additional observations from a re-analysis of the deposited data

How the results depend on the processing

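There were 2 total RNA libraries a group, and 1 long-read library. The 1 intron that fell became 0 with the 5′ junction alone, the 3′ junction alone, separate scaling of split and unsplit reads, DESeq2 and limma, and the lowest and highest counts without single libraries were 0 and 3. The 4 genes with lower efficiency became 0 with the 5′ junction alone, 2 with the 3′ junction alone, 2 with separate scaling, 2 with DESeq2 and 0 with limma, and 0 to 5 without single libraries. The 5 genes with fewer spliced reads became 1 of 32 when genes with an annotated opposite-strand gene were left out, a choice made after the data were seen that tests fewer genes, and 2 to 17 genes were called in either direction without single libraries. Of the other counts the cause was not tested. Settings other than these and the replicate block gave 4 to 6 genes with fewer spliced reads, and without the opposite-strand genes the count of introns stayed at 1 of 82. The 12 long-read transcripts past 2-fold became 5 with a pseudocount of 5 reads and 5 with at least 50 reads. The change in mean efficiency ran from -0.0136 to -0.0033 without single libraries. The introns with an unadjusted p under 0.05, the mitochondrial ribosomal protein genes called or nearest the threshold, and Son kept their direction in these settings. Other named introns and genes were not followed through them. The median log2 odds ratio over introns went from 0.10 to -0.06 with separate scaling, which takes out a change in the ratio common to all introns. Deviations of same-numbered samples had a correlation near 0 over all tested introns (r = 0.0085) and over spliced reads of all genes (r = -0.0010). Over the 174 tested introns of mitochondrial ribosomal protein genes r was -0.25. Such a correlation cannot see a shift common to a whole library. The first library of each group had more split reads at 5′ junctions and a higher mean efficiency than the second. Whether same-numbered samples share a batch was not tested. With a replicate block 3 introns, in Mrpl24, Mrpl38 and Mrpl53, were called, 5 genes had lower efficiency and 7 had fewer spliced reads.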

Other observations

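Introns that were not listed in all 4 libraries entered no test, and 24 of these genes' introns were of this kind. Among them were a pair of introns, 74 and 73 nt long, that the tables list under Mrps34 and a second gene. The first stood at 0.595 and 0.5 in the controls and at 0.174 in the first knockdown library, with 4 split and 19 unsplit reads, and was not listed in the second. The other stood at 0.561 and 0.615 in the controls and was listed in neither knockdown library. An 891-nt intron of Mrpl55 stood at 0.815 in the first control library, with 22 split and 5 unsplit reads, and at 0.333 and 0.708 in the knockdown libraries. Introns of Mrpl14, Mrpl4 and Mrps21 were listed in both knockdown libraries and in neither control, with 412 and 280, 358 and 290, and 536 and 371 split reads. Why an intron with so many reads is missing from a table was not tested. No intron was listed in any library for Mrpl23, Mrpl32, Mrpl57, Mrps17 and Mrps33, which had between 45 and 711 long reads over both libraries.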
